A study of Mus musculus with 6 samples.

Results

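The enzymes that remove superoxide and peroxides and that make, use and recycle glutathione were followed in hearts of mice lacking apolipoprotein E with and without tissue inhibitor of metalloproteinases 3. The set held every protein-coding gene for a superoxide dismutase (Sod1 to Sod3), glutathione peroxidase (Gpx), peroxiredoxin (Prdx), thioredoxin or thioredoxin-related protein (Txn), thioredoxin reductase (Txnrd) or soluble glutathione transferase (Gst), with Cat, Gclc, Gclm, Gsr, Gss and Nqo1, with membership decided by gene symbol. It comprised 64 of the 36567 genes with a value, in 16 enzyme classes. Of the 64, 52 passed the filter on low values, a mean of at least 1 FPKM (sequenced fragments of a transcript per kilobase of its length, set against the library's total), and were tested. The other 12 averaged at most 0.606 FPKM. They were Gpx2, Gpx5, Gpx6, Txndc2, Txndc8, Gsta1, Gsta2, Gstm3, Gstm6, Gstp3, Gstt4 and Gsto2, of which 3 were listed at 0 in all 6 libraries.

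Messenger RNA was sequenced from hearts at 32 weeks of age. The tested hearts were labelled ApoE-/- Timp3-/- (libraries 4, 5 and 6, here the double mutants). Their littermates labelled ApoE-/- served as controls (libraries 1, 2 and 3), so that the Apoe deletion was common to all 6 libraries. Whether each library came from a separate mouse is not stated. Mice without Apoe have high blood cholesterol and atherosclerosis, and no group had intact Apoe. The labels do not state how the alleles were built, the sex of the mice or which part of the heart was taken.

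All values below are FPKM summed by gene and brought to one scale between libraries by the median of ratios (scaled FPKM), and differences are on the scale of log2(scaled FPKM + 1), double mutants minus controls. Ventricular cardiomyocyte markers (9 of 9 at a mean of at least 1 FPKM) summed to between 17369 and 23903 in double mutants and between 14052 and 18960 in controls. The libraries held between 683 and 910 aligned megabases in double mutants and between 654 and 1339 in controls. Timp3 had 19.9, 31.2 and 29.2 scaled FPKM in double mutants, against 44.5, 37.9 and 39.3 in controls (log2 difference -0.60, adjusted p = 0.27 by limma). The Timp3 groups did not overlap, but Timp3 stayed well above 0 in every library labelled ApoE-/- Timp3-/-. A value for a whole transcript does not show whether a deleted part is missing from it. Apoe lay between 1.81 and 3.45 in double mutants and between 2.28 and 3.55 in controls. Red blood cell markers stood apart in library 4, with a sum of 20572 over the 8 of 10 markers that had a value, against 851 and 2133 in the other double mutants and between 207 and 878 in controls. Adipocyte markers (7 of 8 at a mean of at least 1 FPKM) summed to between 9.55 and 36.3 in double mutants, against 186 in library 1 and 9.90 and 11.7 in the other controls. In bulk tissue, fewer cells of a type and less RNA per cell cannot be told apart.

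As background, superoxide dismutases turn superoxide into hydrogen peroxide, which catalase, glutathione peroxidases and peroxiredoxins then reduce. Glutathione peroxidases draw their electrons from glutathione and most peroxiredoxins draw theirs from thioredoxin, and glutathione reductase and thioredoxin reductases return those carriers to the reduced state with NADPH. Glutathione transferases join glutathione to lipid oxidation products and foreign compounds. The transcription factor NRF2 drives many of these genes through a short promoter element, the antioxidant response element. Heart muscle makes peroxide mainly in its mitochondria, where Sod2, Prdx3, Prdx5, Txn2 and Txnrd2 act.

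The peroxidase families differ in the residue that meets the peroxide. Gpx1, Gpx3 and Gpx4 carry selenocysteine, encoded by an in-frame TGA, whereas Gpx7 and Gpx8 have a cysteine codon at the aligned position. These are shown because Gpx8 is the peroxidase in this family with the smallest p below and has no selenium at this site. Each line gives 12 coding bases on either side of the codon, which is in capitals, from the GENCODE M21 transcripts (GRCm38), 5′ to 3′. The codons are number 47 of Gpx1 (chromosome 9), 73 of Gpx3 (chromosome 11), 129 of the longest Gpx4 form (chromosome 10), 56 of Gpx7 (chromosome 4) and 79 of Gpx8 (chromosome 13).
Gpx1: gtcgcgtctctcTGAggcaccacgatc
Gpx3: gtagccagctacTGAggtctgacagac
Gpx4: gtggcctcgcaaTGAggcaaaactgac
Gpx7: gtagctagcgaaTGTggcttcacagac
Gpx8: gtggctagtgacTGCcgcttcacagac
The thioredoxin reductases carry the same kind of codon as the last but 1 of the protein, and the bases up to the last codon are shown for all 3 because Txnrd2 is treated below.
Txnrd1: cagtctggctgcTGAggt
Txnrd2: gtgactggttgcTGAggc
Txnrd3: cagaaaggctgcTGAggc
Annotated selenocysteine codons were found in 7 members, of which 6 were tested. None of the 6 had an unadjusted p under 0.05. Without Txnrd2, their log2 differences lay between -0.24 (Txnrd1) and 0.18 (Gpx3).

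The classes covered a wide range of transcript levels, and peroxiredoxins were the most abundant. Their 7 members summed to 465 ± 59.9 scaled FPKM in double mutants and 475 ± 58.1 in controls (SD, n = 3 each), 33.9% of the level of all 64 genes. Glutathione peroxidases followed with 209 ± 20.0 in double mutants and 208 ± 45.1 in controls, and thioredoxin-related proteins with 211 ± 10.6 and 176 ± 52.5 in the same order. Most of the thioredoxin-related sum was Txnip, with 133 ± 14.3 in double mutants and 95.6 ± 54.5 in controls. The sum over all classes was 1389 ± 68.0 in double mutants and 1385 ± 106 in controls. On this per-length scale 11 members averaged at least 50. Prdx5, Txnip, Prdx6, Gpx3, Prdx2 and Cat were the top 6, and the ranges of neighbours in that order overlapped over the libraries.

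**Figure D1:**
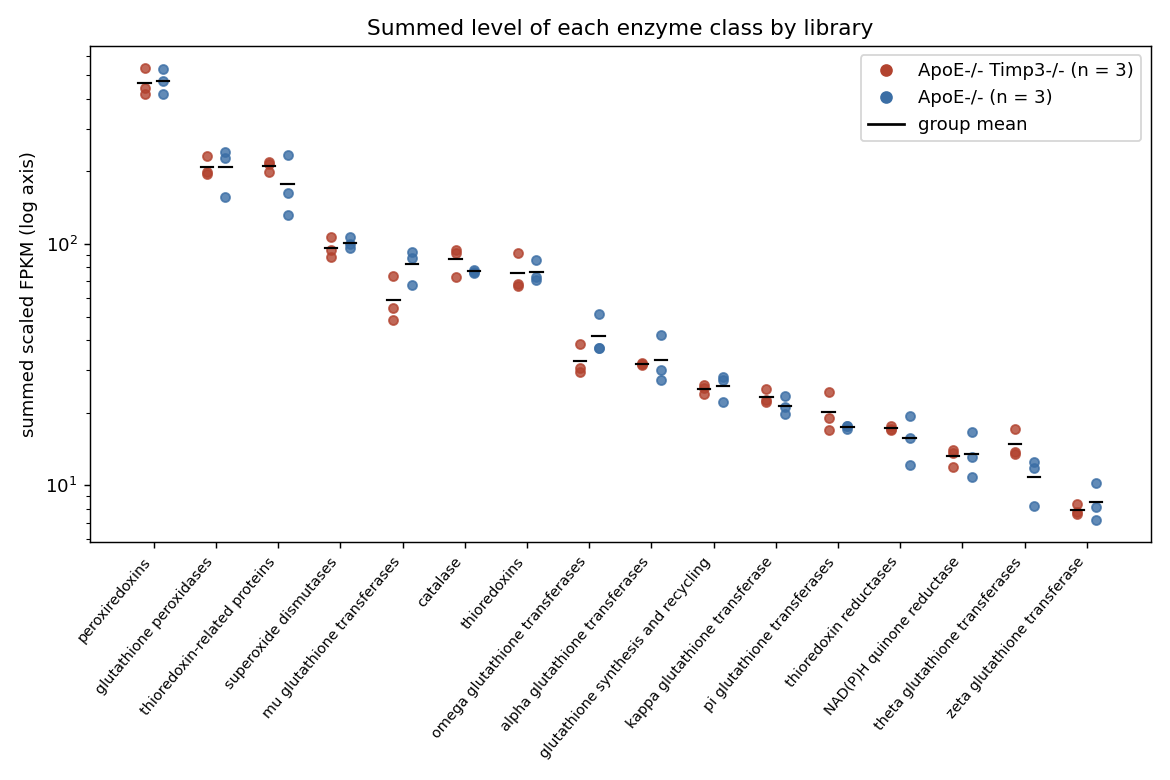
Summed scaled FPKM (log axis) of the members of each enzyme class in the 3 double mutant (red) and 3 control (blue) libraries; black lines are group means. Peroxiredoxins were highest in both groups, and the 2 groups overlapped in every class except the theta glutathione transferases.

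Of the 16 class sums, 15 overlapped between the groups. The theta glutathione transferases summed to 13.7, 13.5 and 17.2 in double mutants, against 11.8, 12.5 and 8.25 in controls, a log2 ratio of means of 0.45 (0.28 without library 3, and 0.27 with the same total FPKM per library). The low value in library 3 includes Gstt3 listed at 0 there, which can be a failed estimate. The mu glutathione transferases gave 54.2, 48.6 and 73.5 in double mutants and 92.8, 67.4 and 87.9 in controls, a log2 ratio of -0.49 that was -0.21 when assembled transcripts of either strand were counted and -0.32 from reference transcripts only. The groups of the mu class overlapped. Class sums were not tested.

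No member passed the threshold. In a limma fit of all 11321 tested genes, 0 of the 52 tested members had an adjusted p under 0.05 (lowest 0.24), and 5 of all genes did, 0.0442%. At an unadjusted p under 0.05 stood 6 members, 2 higher and 4 lower in double mutants, or 11.5%, beside 12.6% of all genes (7.16% higher and 5.46% lower). The same 6 were the tested members whose groups did not overlap, again 11.5%, beside 19.5% of all genes. The median log2 difference was -0.036 over the members and -0.0046 over all genes, and 36 of the 52 members lay within 0.2 of 0. The median size of the difference, sign aside, was 0.12 in the members and 0.15 over all genes. The share at an unadjusted p under 0.05 was near that of all genes.

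The direction of the smaller differences depended on the scaling. With the median of ratios, 24 members were above 0 and 28 below, 46.2% above, beside 49.1% of all genes. With the deposited FPKM unscaled, 32.7% were above 0. With libraries set to the same total FPKM, 13.5% were above 0, and the median of all genes was then -0.15. Relative to that median, 22 of the 52 members were above it, as against 24 with the median of ratios.

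**Figure D2:**
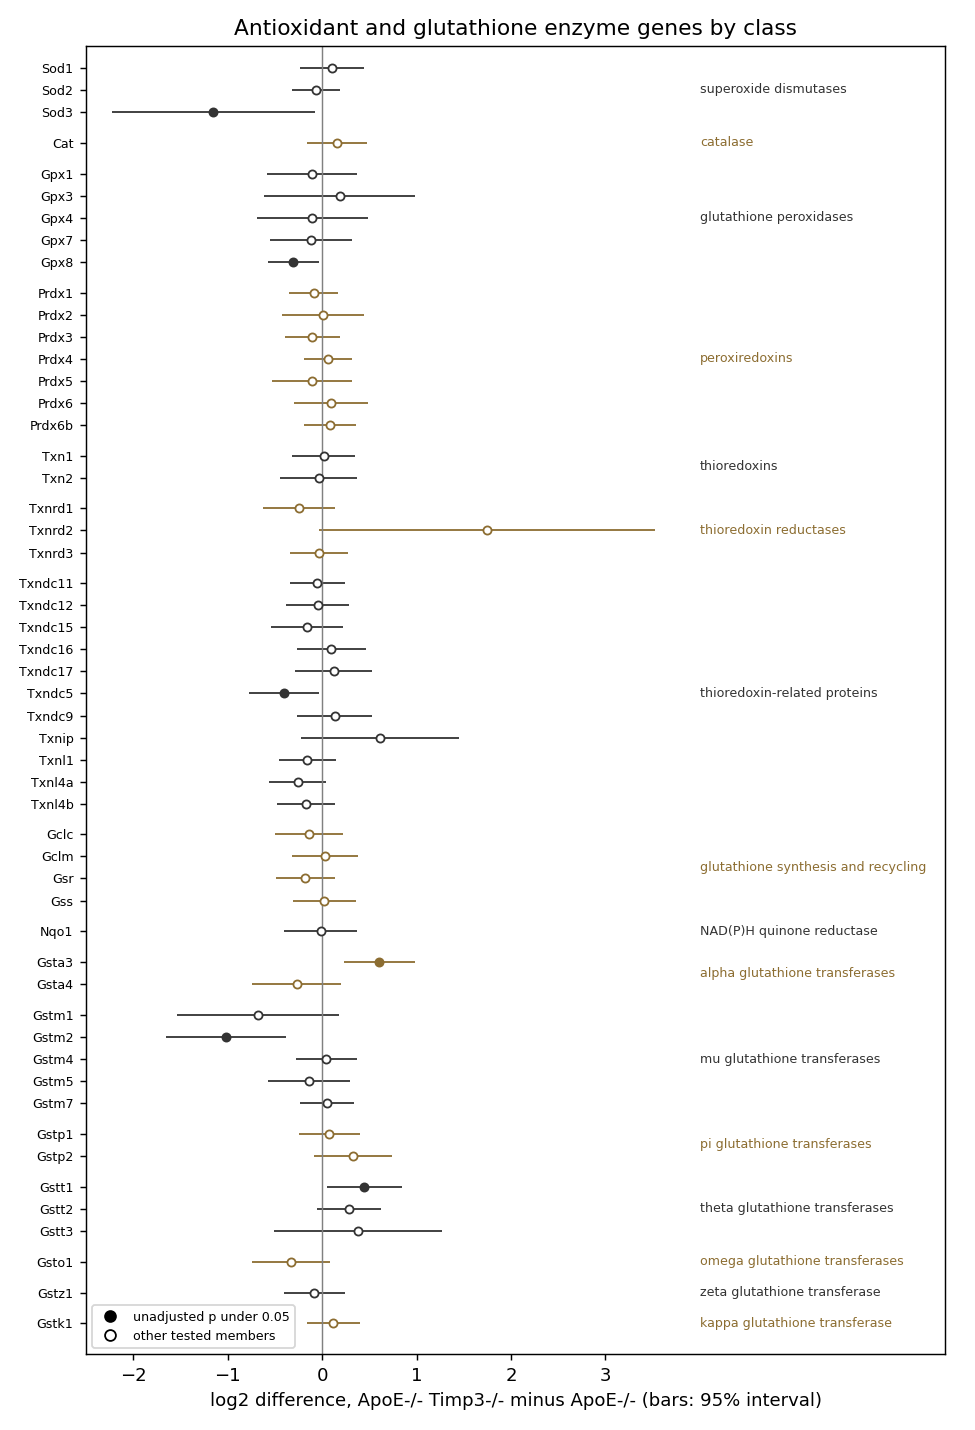
Log2 difference (double mutants minus controls) and its 95% interval from limma for the 52 tested members, grouped by enzyme class; filled points have an unadjusted p under 0.05. The 6 filled points are Gsta3 and Gstt1 to the right of 0 and Gstm2, Sod3, Txndc5 and Gpx8 to the left, and the widest interval is that of Txnrd2, which was listed at 0 in 2 controls.

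Among the glutathione transferases, Gsta3 and Gstm2 had the smallest p of all members and lay in opposite directions. Gsta3 (ENSMUSG00000025934, chr1:21230670-21255442 in NCBIM37), an alpha-class enzyme best known from liver, had 8.41, 12.9 and 11.3 scaled FPKM in libraries 4, 5 and 6, against 7.15, 6.34 and 6.59 in libraries 1, 2 and 3. Every double mutant exceeded every control, with library 4 nearest to the controls. The log2 difference was 0.61 (SE 0.16, 95% interval 0.23 to 0.98, unadjusted p = 0.0063, adjusted p = 0.24 by limma). With limma weights that let library 3 count most (3.38) and library 4 least (0.316), it was 0.74 with an adjusted p of 0.032 (0.032 to 0.66 over all alternatives). Under those weights 427 of the 11321 tested genes passed the threshold, against 5 without them, and 2 of the 52 tested members did. The Gsta3 difference was above 0 under every setting and with each library left out. Its strongest reference transcript alone gave 0.39 (unadjusted p = 0.18 by limma). That transcript had 5.70, 7.09 and 5.70 deposited FPKM in double mutants and 6.61, 3.14 and 4.59 in controls, which overlapped. A second transcript gave 1.09 (unadjusted p = 0.10 by limma) and was listed at 0 in library 1. Hepatocyte markers (2 of 8 at a mean of at least 1 FPKM, Ttr at 0 throughout) summed to 0.735, 9.22 and 13.6 in the double mutants and to 21.0, 0.796 and 0.861 in controls. Their part in the Gsta3 values was not tested. Gsta4, which acts on the lipid oxidation product 4-hydroxynonenal and was the most abundant alpha member, had 22.4, 18.2 and 19.5 in double mutants and 19.6, 33.0 and 22.1 in controls.

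The promoter windows of this pair are printed because they have the smallest p of all members. Each runs from 250 bases before to 50 after the gene's start, as given by RefSeq on GRCm38.p6, in the direction of transcription. Letters matching the core of the antioxidant response element, TGACNNNGC, searched on both strands, are in capitals. Gsta3 (chr1:21240335-21240634, plus strand) held 1 match, beginning at position -121 on the coding strand. Gstm2 (chr3:107986371-107986670, minus strand) held none in this window.
Gsta3: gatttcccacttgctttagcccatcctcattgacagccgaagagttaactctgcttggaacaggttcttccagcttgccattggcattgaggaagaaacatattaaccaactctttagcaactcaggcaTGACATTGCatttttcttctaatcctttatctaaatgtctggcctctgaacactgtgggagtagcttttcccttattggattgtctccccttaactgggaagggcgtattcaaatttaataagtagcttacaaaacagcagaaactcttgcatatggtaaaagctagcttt
Gstm2: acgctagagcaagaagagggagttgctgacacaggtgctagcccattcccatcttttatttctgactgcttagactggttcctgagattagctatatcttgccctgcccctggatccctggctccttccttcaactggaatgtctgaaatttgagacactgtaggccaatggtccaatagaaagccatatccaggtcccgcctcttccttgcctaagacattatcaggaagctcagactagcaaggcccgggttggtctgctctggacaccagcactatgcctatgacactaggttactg
A match was present in 10 of the 72 windows of the 55 members that had any, 13.9%, and in 4071 of 32851 windows of all genes, 12.4%. The members with a match were Gclm, Gsta3, Gstm5, Gstm7, Prdx1, Sod1, Txndc11, Txndc2, Txndc5 and Txnrd1.

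Gstm2 (ENSMUSG00000040562, chr3:107784620-107789371) encodes a mu-class transferase of muscle and heart. It had 9.98, 5.98 and 6.51 scaled FPKM in libraries 4, 5 and 6, against 19.1, 10.6 and 19.8 in libraries 1, 2 and 3. All double mutants were below all controls, but library 4 and library 2 were nearly level. The log2 difference was -1.02 (SE 0.27, 95% interval -1.66 to -0.39, unadjusted p = 0.0066, adjusted p = 0.24 by limma). With the library weights, under which 427 of all genes passed the threshold, it was -1.36 with an adjusted p of 0.030 (0.03 to 0.56 over all alternatives). These values leave out assembled transcripts that the files place on the opposite strand within the same exons, of 406 to 435 nt, in libraries 4, 5, 6 and 2. With them Gstm2 had 18.8, 12.2 and 12.7 in double mutants and 19.1, 21.9 and 19.8 in controls. The groups still did not overlap, and the difference was then -0.47 (unadjusted p = 0.029, adjusted p = 0.34 by limma).

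Gstm1 (chr3:107815173-107820891), the most abundant mu member, also turned on this choice. It had 18.1, 16.0 and 37.8 in double mutants and 48.4, 24.3 and 40.2 in controls, which overlapped (log2 difference -0.68, adjusted p = 0.51 by limma). Of the 48.4 in library 1, 30.1 came from an assembled transcript on the gene's own strand. With opposite-strand transcripts, present in libraries 4, 5 and 2, it had 41.4, 36.3 and 37.8 in double mutants and 48.4, 42.9 and 40.2 in controls. The SD then dropped to 2.61, against 12.02 before, in double mutants and to 4.18, against 12.3 before, in controls, and the difference was -0.18 (adjusted p = 0.60 by limma; 0.24 to 0.93 over all alternatives). The coding sequences of Gstm1 and Gstm2 were identical at 85.9% of the aligned bases of the shorter one, so reads may be split between them. Of the other mu members, Gstm4, Gstm5 and Gstm7 differed by between -0.14 and 0.05.

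**Figure D3:**
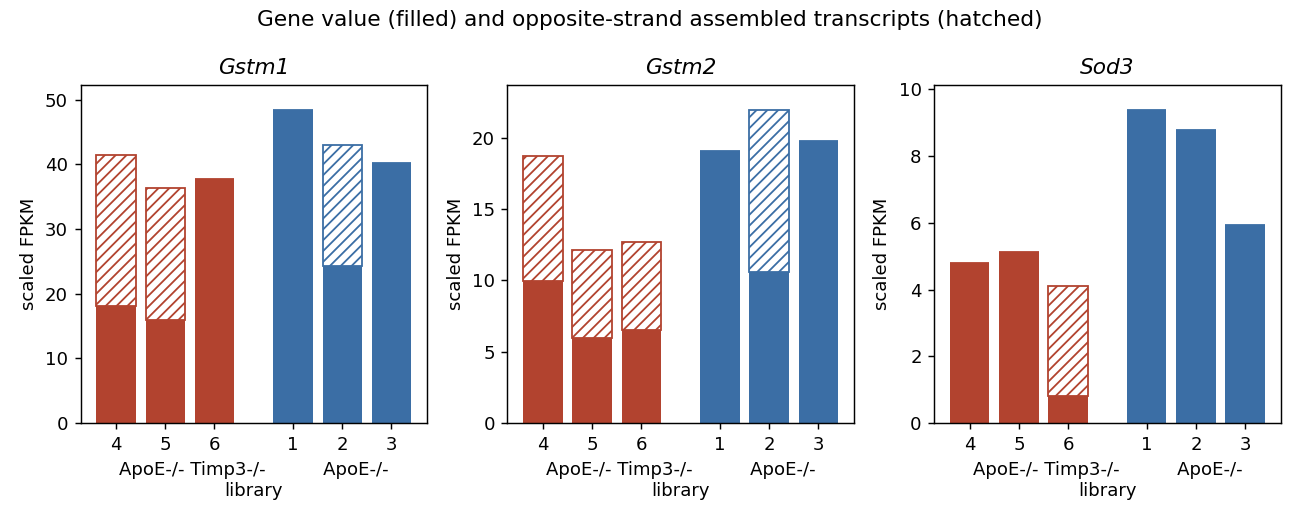
Scaled FPKM of Gstm1, Gstm2 and Sod3 in each library, double mutants left of controls; filled bars are the value used, and hatched bars are assembled transcripts that the files place on the opposite strand of the same exons. Adding the hatched parts brings the 6 libraries of Gstm1 to between 36.3 and 48.4 and lifts Sod3 in library 6 to 4.12.

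The theta member Gstt1 (ENSMUSG00000001663, chr10:75246558-75261329), which handles small halogenated compounds, had 7.89, 8.31 and 10.5 scaled FPKM in libraries 4, 5 and 6, against 7.42, 6.54 and 4.96 in libraries 1, 2 and 3. The groups did not overlap, although libraries 4 and 1 differed little. The log2 difference was 0.44 (SE 0.17, unadjusted p = 0.033, adjusted p = 0.35 by limma), and 0.28 with the same total FPKM per library. Gstt2 averaged 4.35 ± 0.514 in double mutants and 3.42 ± 0.657 in controls (SD, n = 3 each), and its groups overlapped. Among the remaining transferases, the pi members Gstp1 (15.6, 11.6 and 11.7 in double mutants, 11.9, 12.01 and 12.5 in controls) and Gstp2 share 98.1% of their coding bases, so how their reads were divided is uncertain. Gsto1 of the omega class had 37.9, 30.4 and 29.1 in double mutants and 36.4, 50.6 and 36.7 in controls. Gstz1, which also acts in tyrosine breakdown, had 7.64, 8.35 and 7.75 in double mutants and 10.2, 8.12 and 7.21 in controls. Gstk1, of mitochondria and peroxisomes, had 25.1, 22.2 and 22.6 in double mutants and 23.5, 19.7 and 21.0 in controls. The groups of all of these overlapped.

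Of the 3 superoxide dismutases, the mitochondrial Sod2 was the most abundant and the secreted Sod3 the least. Sod2 had 65.2, 59.5 and 60.8 scaled FPKM in libraries 4, 5 and 6, against 62.7, 67.3 and 63.9 in libraries 1, 2 and 3, for which limma gave a difference of -0.06 (95% interval -0.32 to 0.19). Cytosolic Sod1 averaged 30.9 ± 5.03 in double mutants and 28.5 ± 2.16 in controls (SD, n = 3 each). Sod3 (ENSMUSG00000072941, chr5:52755185-52762644), the extracellular enzyme bound to matrix of vessel walls, had 4.78, 5.12 and 0.809 in libraries 4, 5 and 6, against 9.37, 8.78 and 5.92 in libraries 1, 2 and 3. No double mutant reached the lowest control, and library 6 was far below the other double mutants. The log2 difference was -1.15 (SE 0.46, 95% interval -2.23 to -0.07, unadjusted p = 0.039, adjusted p = 0.37 by limma), and -0.58 without library 6 (adjusted p = 0.41; 0.21 to 0.59 over all alternatives). Library 6 alone held an assembled transcript of 1539 nt placed on the opposite strand of the 3570 nt of Sod3. Counting it, Sod3 was 4.12 in that library, the groups still did not overlap, and the difference was -0.65 (unadjusted p = 0.0068, adjusted p = 0.24 by limma). Smooth muscle and pericyte markers (9 of 10 at a mean of at least 1 FPKM) summed to between 287 and 334 in double mutants and between 289 and 414 in controls, and their part in the Sod3 difference was not tested.

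Catalase, the peroxisomal enzyme that splits hydrogen peroxide, had 72.7, 94.6 and 91.7 scaled FPKM in libraries 4, 5 and 6, against 76.7, 76.1 and 78.0 in libraries 1, 2 and 3. Library 4 lay below and libraries 5 and 6 above all controls, and the log2 difference was 0.16 (adjusted p = 0.69 by limma).

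Among the tested glutathione peroxidases, Gpx3, the secreted plasma enzyme, was the most abundant and had the widest ratio of highest to lowest library, 2.43. It had 79.9, 113 and 141 scaled FPKM in libraries 4, 5 and 6, against 137, 108 and 58.1 in libraries 1, 2 and 3, so that the groups overlapped throughout. Atrial cardiomyocyte markers (8 of 8 at a mean of at least 1 FPKM) had the same order within each group, summing to 392, 1419 and 1961 in the double mutants 4, 5 and 6, against 1938, 1098 and 360 in the controls 1, 2 and 3. Their part in the Gpx3 values was not tested. Gpx4, which reduces lipid hydroperoxides in membranes, averaged 56.0 ± 11.6 in double mutants and 61.4 ± 19.9 in controls, and Gpx1 of cytosol and mitochondria averaged 32.3 ± 8.20 and 34.2 ± 3.40 in the same order (SD, n = 3 each). Of the 68.3 for Gpx4 in library 4, 43.7 came from assembled transcripts. The log2 difference of Gpx4 was -0.10 and lay between -0.72 and 0.14 over all alternatives.

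Gpx8 (ENSMUSG00000021760, chr13:113832971-113836596), a membrane enzyme of the endoplasmic reticulum that acts in oxidative protein folding, had 5.62, 6.66 and 6.84 scaled FPKM in libraries 4, 5 and 6, against 8.67, 8.03 and 7.58 in libraries 1, 2 and 3. All double mutants were below all controls by a narrow margin. The log2 difference was -0.30 (SE 0.12, unadjusted p = 0.034, adjusted p = 0.36 by limma). The 3 double mutants, and no control, also held assembled transcripts at this gene, with 1.62, 2.37 and 1.85 of those values. The single reference transcript alone gave -0.77 (adjusted p = 0.30 by limma over 12745 transcripts), and with assembled transcripts at their full FPKM the difference was -0.17. Gpx7, the related enzyme of the same compartment, averaged 2.46 ± 0.752 in double mutants and 2.73 ± 0.511 in controls (SD, n = 3 each). Txndc5 (ENSMUSG00000038991, chr13:38591948-38620693), a disulfide isomerase of the endoplasmic reticulum known for its role in cardiac fibroblasts, had 7.61, 5.53 and 8.09 in libraries 4, 5 and 6, against 10.4, 9.81 and 8.46 in libraries 1, 2 and 3. Its groups did not overlap, with library 6 and library 3 close together. The log2 difference was -0.40 (SE 0.16, unadjusted p = 0.038, adjusted p = 0.37 by limma), and it was -0.25 without library 5 and -0.17 from reference transcripts only. Fibroblast markers (10 of 10 at a mean of at least 1 FPKM) summed to between 371 and 424 in double mutants and between 384 and 536 in controls, and endothelial markers (10 of 10) to between 360 and 476 in double mutants and between 435 and 584 in controls. Their part in the values of Gpx8 and Txndc5 was not tested. Gpx8 and Txndc5 each overlap a gene on the other strand (Cdc20b, listed at 0 in all 6 libraries, and Bmp6, 3.16 to 5.43 in double mutants and 3.63 to 5.06 in controls), and no label or file header states whether counting used strand.

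**Figure D4:**
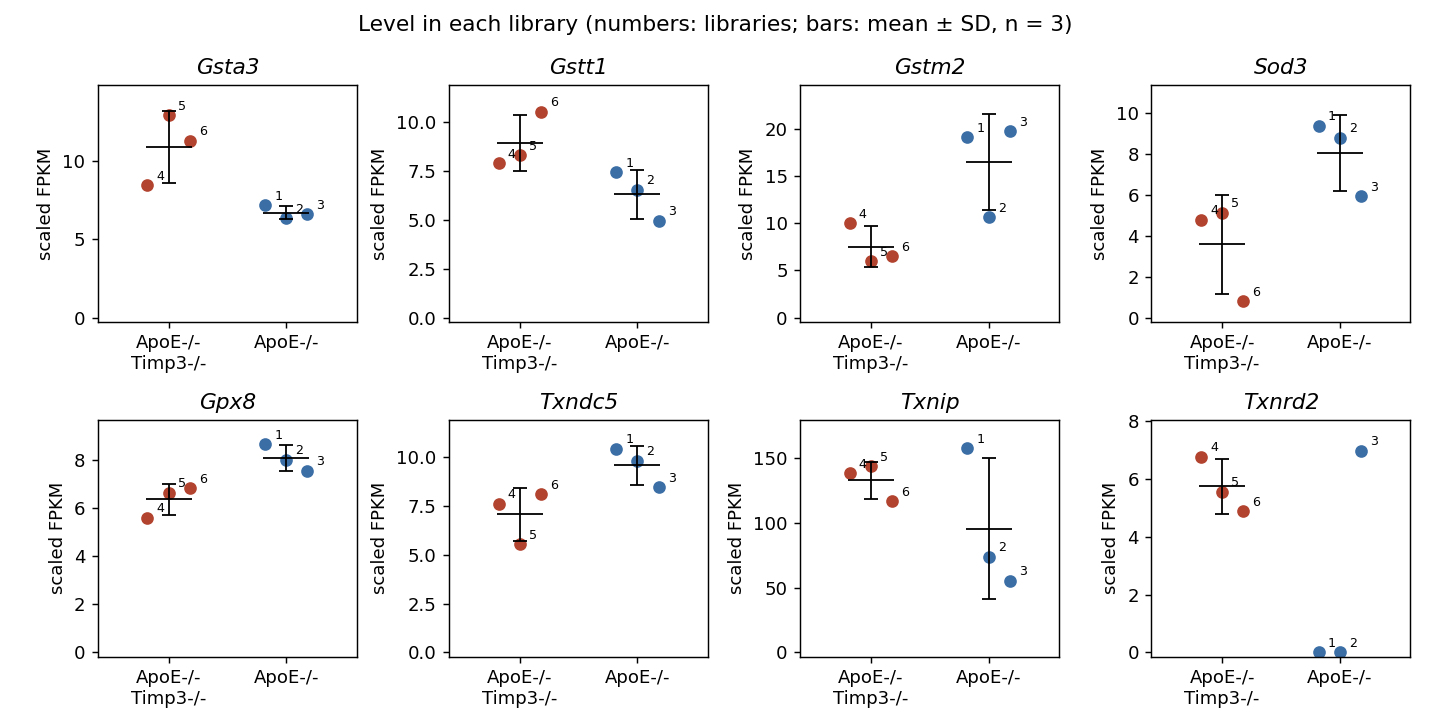
Scaled FPKM of the 6 members at an unadjusted p under 0.05, with Txnip and Txnrd2, in each library (numbered points), double mutants left of controls; bars are mean ± SD of 3 libraries, left out where a library is listed at 0. Gsta3 and Gstt1 are higher and Gstm2, Sod3, Gpx8 and Txndc5 lower without overlap, while the controls of Txnip range between 55.3 and 158 and Txnrd2 is at 0 in libraries 1 and 2.

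The peroxiredoxins, the most abundant peroxide scavengers by transcript level, held no member at an unadjusted p under 0.05. Prdx5, found in mitochondria, peroxisomes and cytosol, had 133, 110 and 96.9 scaled FPKM in libraries 4, 5 and 6, against 104, 147 and 118 in libraries 1, 2 and 3. Its log2 difference was -0.11 (95% interval -0.54 to 0.31). The other 6 differed by between -0.10 (Prdx3) and 0.09 (Prdx6). Mitochondrial Prdx3 averaged 65.4 ± 1.46 in double mutants and 70.6 ± 8.10 in controls, and Prdx6, the member that uses glutathione, averaged 115 ± 17.3 and 108 ± 15.7 in the same order (SD, n = 3 each). Prdx2, abundant in red blood cells, had its highest value, 127, in library 4, where the red blood cell markers also peaked. It had 94.6 and 83.6 in the other double mutants and 88.2, 113 and 99.3 in controls. Its lowest value, 83.6, was in library 6, which had the next highest marker sum, 2133. Prdx6 was also highest in library 4 (134). Among the double mutants, 44.2% of tested members and 42.6% of all tested genes were highest in library 4. The part of red blood cells in the Prdx2 values was not tested.

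Thioredoxins and their reductases gave no difference beyond the spread where estimates were complete. Mitochondrial Txn2 had 70.4, 50.9 and 49.98 scaled FPKM in libraries 4, 5 and 6, against 52.6, 66.2 and 55.7 in libraries 1, 2 and 3. Cytosolic Txnrd1 had 7.41, 8.54 and 10.4 in double mutants and 9.75, 12.5 and 9.51 in controls, with a log2 difference of -0.24 (adjusted p = 0.60 by limma). Mitochondrial Txnrd2 (chr16:18426510-18479166) had 6.76, 5.56 and 4.89 in double mutants, but was listed at 0 in libraries 1 and 2 and had 6.96 in library 3, the highest value of all. Since a value of 0 can be a failed estimate, no difference is read from these values. The threshold was passed only with library 3 left out (adjusted p = 0.0059 by limma); both remaining controls are then listed at 0, so that p rests on those zeros and nothing is read from it. Txnip, the protein that binds and inhibits thioredoxin and responds to glucose, had 138, 144 and 117 in double mutants and 158, 73.8 and 55.3 in controls. The double mutants lay close together inside the range of the controls. Its log2 difference was 0.61 (adjusted p = 0.55 by limma), 1.04 without library 1 (adjusted p = 0.26; 0.12 to 0.85 over all alternatives) and 0.29 without library 3. The other 9 tested thioredoxin-related members differed by between -0.26 (Txnl4a) and 0.13 (Txndc9).

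Of the 4 genes that make and recycle glutathione, none had an unadjusted p under 0.05. Gclm, the modifier subunit of the rate-limiting glutamate-cysteine ligase, had 11.3, 13.1 and 12.1 scaled FPKM in libraries 4, 5 and 6, against 13.8, 12.5 and 9.61 in libraries 1, 2 and 3, and the sign of its difference turned with the scaling. The catalytic subunit Gclc averaged 2.41 ± 0.391 in double mutants and 2.78 ± 0.549 in controls. Glutathione synthetase (Gss) averaged 5.88 ± 0.550 and 5.80 ± 1.00, and glutathione reductase (Gsr) 4.58 ± 0.729 and 5.29 ± 0.414, each in the same order (SD, n = 3 each). Nqo1, a quinone reductase often used as a readout of NRF2, had 11.95, 13.6 and 14.0 in double mutants and 10.8, 16.6 and 13.1 in controls.

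At the level of single reference transcripts, 69 transcripts of 51 members were tested and 0 had an adjusted p under 0.05, beside 17 of all 12745 transcripts, 0.133%. At an unadjusted p under 0.05 stood those of Gpx8, Gstm2 and Gstt1, beside 8.39% of all transcripts.

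Other genes of these pathways were read from 9 lists with 112 genes, of which 82 were tested. None had an adjusted p under 0.05 by limma, 4 were higher and 5 lower at an unadjusted p under 0.05, beside 12.6% of all genes (7.16% higher and 5.46% lower), and 44 lay above 0, beside 49.1% of all genes. Nfe2l2, which encodes NRF2, was the 1 of 10 tested genes of NRF2 regulation at that level. It had 23.6, 40.9 and 33.5 scaled FPKM in double mutants, against 21.0, 20.7 and 21.5 in controls (log2 difference 0.58, adjusted p = 0.31 by limma). The groups did not overlap, and the controls were almost equal. Of 16 other tested NRF2 target genes, 1 was higher and 1 lower at that level, and 5 lay above 0. Blvrb, biliverdin reductase B, had 11.8, 8.20 and 10.6 in double mutants, against 3.80, 3.71 and 4.25 in controls (log2 difference 1.17, adjusted p = 0.11 by limma), without overlap. Red blood cell markers, given above, were also highest in library 4 and lowest in library 5 among the double mutants. Between the groups this order was not kept. Library 5 had a marker sum of 851 with Blvrb at 8.20, and control library 1 had 878 with Blvrb at 3.80. The part of red blood cells in the Blvrb values was not tested. Hmox1, the heme oxygenase that makes biliverdin, had 2.40, 2.49 and 2.23 in double mutants, against 3.90, 5.79 and 3.13 in controls (log2 difference -0.61, adjusted p = 0.27 by limma), also without overlap.

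The other lists were read at the same level, at which 12.6% of all genes stood (7.16% higher and 5.46% lower). Of 14 tested genes for selenoprotein synthesis and other selenoproteins, 0 were higher and 2 lower. Selenon of the sarcoplasmic reticulum had 4.18, 3.75 and 3.62 in double mutants, against 5.44, 5.38 and 5.49 in controls (log2 difference -0.41, adjusted p = 0.23 by limma). Selenof, of the endoplasmic reticulum, differed by -0.28 (adjusted p = 0.39 by limma). Of 6 tested sources of superoxide and hydrogen peroxide, 2 were higher, among them the sulfide oxidase Sqor (21.1 ± 1.35 in double mutants and 17.2 ± 1.39 in controls; SD, n = 3 each). Of 13 tested genes of glutathione turnover and transport, 1 was lower, Ggt5. The list around other membrane-bound glutathione transferases had 9 tested genes, of which 1 was lower, the leukotriene synthase Ltc4s. Not all 9 encode such transferases, as the list also took in Clic1, Clic4, Clic5, Alox5ap and Eef1g. None of 8 glutaredoxins and methionine sulfoxide reductases, 4 genes of mitochondrial NADPH supply or 2 sestrins had an unadjusted p under 0.05.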

How the data were processed

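For each library the authors deposited a file of Cufflinks transcripts, whose attribute column (unit other) holds FPKM and coverage, per the file headers. Per the submitters' processing notes, the tools were TopHat, Bowtie and Cufflinks and the build was NCBIM37. No source used here gives their versions, the read length or the use of strand. Files held 94445 reference transcripts in common and 70603 assembled in single libraries. A gene's value was the FPKM sum of its reference transcripts plus same-strand assembled transcripts of at least 300 nt (exon overlap at least 50%), each weighted by its length over that of the gene's strongest reference transcript, up to 1. That weight was chosen after the files were seen.

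Genes with a mean of at least 1 FPKM and a transcript of at least 300 nt were tested two-sided with limma 3.58.1 (R 4.3.3), with an intensity trend, on log2(scaled FPKM + 1), with Benjamini-Hochberg adjustment over 11321 genes at 0.05. This scale understates differences of low genes. Without read numbers per gene, neither a count test nor a counting interval was possible, and a value listed at 0 may be a failed estimate. The labels say no more of the samples than that the controls are littermates, so each p reflects the spread among these 6 samples, which may be technical. In simulated data, tested over 11321 genes, 86 of 100 genes changed by 2 on the log2 scale were recovered. The changed genes were drawn only from a mean level above that of the filter, so the lowest tested genes were not covered.

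Members and gene lists were chosen with earlier results of these data known. Values of each library are given for members at an unadjusted p under 0.05, the most abundant member of each class and members past the threshold under any setting, and up to 4 genes with the smallest p from each list; Prdx2, Timp3, Apoe, Cdc20b and Bmp6 were added after their values were seen. Sequences are from GENCODE M21 and RefSeq and were aligned with Biopython 1.88. The alternatives changed scaling, pseudocount, filter, transcripts summed and weights, or left out a library; counting assembled transcripts at full FPKM, weighting all transcripts by length and counting either strand were chosen after seeing the data. Some genes that the rule takes are left out of the text.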

Additional observations from a re-analysis of the deposited data

Results flagged for a closer look

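At 2 members the files hold assembled transcripts on the opposite strand that were not part of the gene's value and reached a higher level in a double mutant than in any control. At Gstm1 they had 23.2 scaled FPKM in library 4 and 20.3 in library 5, against 18.7 in control library 2 and none in the other 3 libraries. At Sod3 library 6 alone held such a transcript, with 3.31 scaled FPKM, against none in the controls. Whether these transcripts come from the genes themselves was not tested.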

How the results depend on the processing

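The 6 members at an unadjusted p under 0.05 kept their direction under every alternative run. All genes past the adjusted threshold numbered 3 with a pseudocount of 0.1, 10 with no filter on low values, 427 with library weights, and between 1 and 11 with a library left out (1 without library 1, 10 without library 2, 11 without library 4). Members past it numbered 2 of the 52 tested with library weights (Gsta3 at 0.74, Gstm2 at -1.36), beside those 427 of 11321 genes. With a library left out they numbered between 0 and 1, the 1 being Txnrd2 without library 3, which leaves only controls listed at 0. Transcripts of members past the threshold also ranged between 0 and 1 with a library left out. Members at an unadjusted p under 0.05 numbered 13 with the same total per library (0 higher and 13 lower; 1980 of all genes), 3 from reference transcripts only (1019 of all genes), 3 from the strongest transcript (891 of all genes) and 13 with library weights (7 higher and 6 lower; 2655 of all genes).

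Single members were followed here only for the 22 chosen by the rule for giving values of each library. Of all 52 tested members, 24 were above 0 with the median of ratios, 17 unscaled and 7 with the same total per library. Among the 22, log2 differences turned sign with the same total per library for Cat (-0.032), Gpx3 (-0.0037), Gclm (-0.14), Gstp1 (-0.0997) and Gstk1 (-0.062). With library weights they turned sign for Nqo1 (0.056), Gstp1 (-0.045) and Gstz1 (0.055). Gclm also turned sign unscaled (-0.043), after quantile normalization (-0.0061) and with all transcripts weighted by length (-0.069). With a library left out, ranges crossing 0 were -0.17 to 0.44 for Gpx3, -0.23 to 0.021 for Prdx5, -0.20 to 0.055 for Txn2, -0.11 to 0.13 for Gclm, -0.15 to 0.14 for Nqo1, -0.053 to 0.15 for Gstp1 and -0.18 to 0.041 for Gstz1. Class sums moved by more than the spread between replicates with the same total per library, to log2 ratios of -0.27 for superoxide dismutases, -0.010 for catalase, -0.22 for peroxiredoxins, -0.23 for glutathione synthesis and recycling, -0.0012 for pi, -0.30 for zeta and -0.075 for kappa transferases. They also moved after quantile normalization, to -0.21 for superoxide dismutases and -0.22 for peroxiredoxins, for glutathione synthesis from the strongest transcript (0.13), and for mu transferases with either strand counted (-0.21). The causes were not tested. No paired analysis was possible because the library numbers are not shared between the groups.

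With 3 libraries a group, the median SD of a gene within groups was 0.19 on the log2 scale. In simulated data 86 of 100 genes changed by 2 and 86 of 100 changed by -1.5 were called, with 5 false calls. None of the changed genes was drawn from the lowest tested levels, so recovery there is not known. The simulated noise was drawn independently for each gene, with SDs reassigned at random between genes, so it held no shift shared within a library. Smaller differences of members may have gone undetected.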
